A study of Mus musculus with 70 samples.

Results

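The genes described here are 8 transcription factors of the ETS family: Ets1, Ets2, Fli1, Erg, Spi1 (which encodes PU.1), Spib, Elf1 and Etv6. They were chosen by name, for their known roles in blood and lymphoid cells, with earlier results of these data known. They are 8 of the 27179 genes in the deposited count tables and 8 of the 26 ETS family genes of the mouse. Their levels were followed through progenitor populations of mouse bone marrow that lead to innate lymphoid cells (ILC), lymphocytes that lack rearranged antigen receptors, in wild-type mice and in mice without Tcf7 or Id2. The level of a gene is given in CPM, the share of a library's counts scaled to a fixed total after TMM scaling, which corrects that total for the library's composition.

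Each sample held 100 cells that were sorted from mouse bone marrow by flow cytometry and read by CEL-seq, a method that counts tags near the 3′ end of polyadenylated RNA. Wild-type libraries came from CLP (8 libraries, common lymphoid progenitors in this field), CLP that express the integrin α4β7 (a4b7 CLP, 5), CILP (7, progenitors shared by innate lymphoid cells), ILCP (3) and ILC2P (8, progenitors of group 2 ILC). Which sort gate gave the ILCP samples is not in the labels. Knockout libraries came from mice whose genotype is given as Tcf7-/- (5 CLP, 4 CILP and 2 ILC2P) or Id2-/- (2 CLP, 2 CILP and 1 ILCP). Tcf7 encodes TCF-1 and Id2 an inhibitor of E proteins, and the labels name no Cre or promoter for either deletion. Strain, sex and age are not in the labels used here. The libraries were made in 2 batches, all Id2-/- libraries in batch 1 and both Tcf7-/- ILC2P libraries in batch 2. Replicates are numbered in accession order, and the numbers only name libraries.

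ETS factors bind DNA through a winged helix, the ETS domain, that reads a GGAA core, and the bases around that core and the partner proteins set which factor acts where. In textbook accounts PU.1 and its relative SPI-B drive myeloid, dendritic and B cell fates, while ETS1 is prominent in T cells, NK cells and ILC. FLI1, ERG and ETV6 are known from blood stem and progenitor cells, and ELF1 from lymphoid gene control.

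The sequences below are shown because they are what makes the 8 genes 1 family. Each is the 48 coding bases of the third helix of the ETS domain, the helix that enters the major groove, and the capitals mark the codons of the pair of invariant arginines that touch the GGAA core. They are given 5′ to 3′ on the coding strand, from the GENCODE vM21 transcripts of GRCm38.
Ets1: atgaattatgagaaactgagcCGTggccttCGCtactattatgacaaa
Ets2: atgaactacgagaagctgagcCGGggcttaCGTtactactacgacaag
Fli1: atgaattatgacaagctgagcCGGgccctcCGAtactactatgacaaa
Erg: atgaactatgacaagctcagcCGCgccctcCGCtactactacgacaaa
Spi1: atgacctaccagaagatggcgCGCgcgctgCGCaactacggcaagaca
Spib: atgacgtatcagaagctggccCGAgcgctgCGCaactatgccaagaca
Elf1: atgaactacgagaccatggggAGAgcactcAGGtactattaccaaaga
Etv6: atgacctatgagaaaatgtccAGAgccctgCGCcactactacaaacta

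These stretches lie at chr9:32754252-32754299 for Ets1, chr16:95718962-95719009 for Ets2, chr2:91115248-91115295 for Spi1 and chr6:134263031-134263078 for Etv6 on the plus strand. Those of Fli1 (chr9:32424100-32424147), Erg (chr16:95361121-95361168) and Spib (chr7:44528037-44528084) lie on the minus strand. The Elf1 stretch spans an intron between chr14:79570884 and chr14:79573187 on the plus strand. The closest of all pairs were Fli1 and Erg, with 43 of 48 bases the same (89.6%). Ets1, Ets2, Fli1 and Erg formed 1 group, in which Ets1 shared 41 bases with Fli1 (85.4%) and 38 with Ets2 (79.2%). In the 16 residues encoded, Ets1 and Ets2 were identical, as were Fli1 and Erg, while Ets1 and Fli1 shared 14. Spi1 and Spib shared 41 (85.4%). With the other genes they shared from 27 of 48 (56.2%, Ets1 and Spi1) to 34 (70.8%, either of them with Etv6). Elf1 shared from 28 (58.3%, with Spib) to 32 (66.7%, with Etv6).

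The family also has neighbours in the genome. On chromosome 9 Fli1 (32422204 to 32543432) lies 92.8 kb before Ets1 (32636241 to 32757820), and on chromosome 16 Erg (95359169 to 95586600) lies 116 kb before Ets2 (95702407 to 95721049), in RefSeq's annotation of GRCm38.p6. Spi1 lies on chromosome 2 (91082374 to 91115759), Spib on chromosome 7 (44525995 to 44532087), Elf1 on chromosome 14 (79481174 to 79582491) and Etv6 on chromosome 6 (134035700 to 134270158). Their Entrez identifiers in the tables are 23871 (Ets1), 23872 (Ets2), 14247 (Fli1), 13876 (Erg), 20375 (Spi1), 272382 (Spib), 13709 (Elf1) and 14011 (Etv6).

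The 47 libraries compared held 19322 to 624668 counts in genes (median 134985). Among wild-type populations the ILC2P libraries were the shallowest, at 19322 to 80873, while the 2 Tcf7-/- ILC2P libraries held 248697 and 252100. In these libraries the depth sets what can be seen of a rare transcript: 3 counts over a whole group, the bound used where a group has none, were worth 2.22 CPM in CILP but 7.43 CPM in ILCP. The defining markers separated CLP from CILP, with CLP markers at 0.882 to 1.74% of counts in CLP and 0.146 to 0.305% in CILP, and CILP markers at 0.244 to 0.575% in CILP and at most 0.0597% in CLP. The integrin genes that define a4b7 CLP, Itga4 and Itgb7, took 0.0344 to 0.115% there and 0.0216 to 0.0598% in CLP, so those ranges overlapped. The later populations were not separated by them: CILP markers took 0.223 to 0.582% in ILCP and 0.0466 to 0.843% in ILC2P, and ILC2P markers 0.305 to 0.799% in ILCP and 0.373 to 0.991% in ILC2P. Tcf7 itself was at 0 to 63.4 CPM in Tcf7-/- CILP and 166 to 779 CPM in wild-type CILP. In CLP and ILC2P wild-type Tcf7 was as low (0 to 8.17 and 0 to 61.8 CPM), so it checks nothing there. Id2 was at 27.1 and 116 CPM in Id2-/- CILP and 79.6 to 2286 CPM in wild-type CILP, so these ranges overlapped, and a 3′ tag may lie outside the deleted part. The 12 control wells, which held spike-in RNA alone, took 51 to 9439 counts each. Ets1 had 9 counts in 4 of them, Spi1 7 and Spib 6 counts in 1 well each, Fli1 1 count, and Ets2, Erg, Elf1 and Etv6 had none.

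Of the 8 genes, 7 had enough counts to be tested and 4 of the 7 differed among the 5 wild-type populations in an edgeR quasi-likelihood F test, where 18.1% of all 10972 genes tested did at an adjusted p under 0.05. Those 4 were Ets1 (adjusted p = 2.49e-08), Spib (2.2e-05), Elf1 (0.000956) and Ets2 (0.0197). Spi1 (0.103), Etv6 (0.175) and Fli1 (0.358) did not pass, and Erg, with 26 counts in 10 of the 47 libraries, was too rare to test. Ets1 was highest in CILP, ILCP and ILC2P, Spib in CLP and a4b7 CLP, Elf1 in CLP, and Ets2 was absent from the counts of CILP. In sorted pools, fewer cells that hold a transcript and less of it in each cell cannot be told apart.

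**Figure D1:**
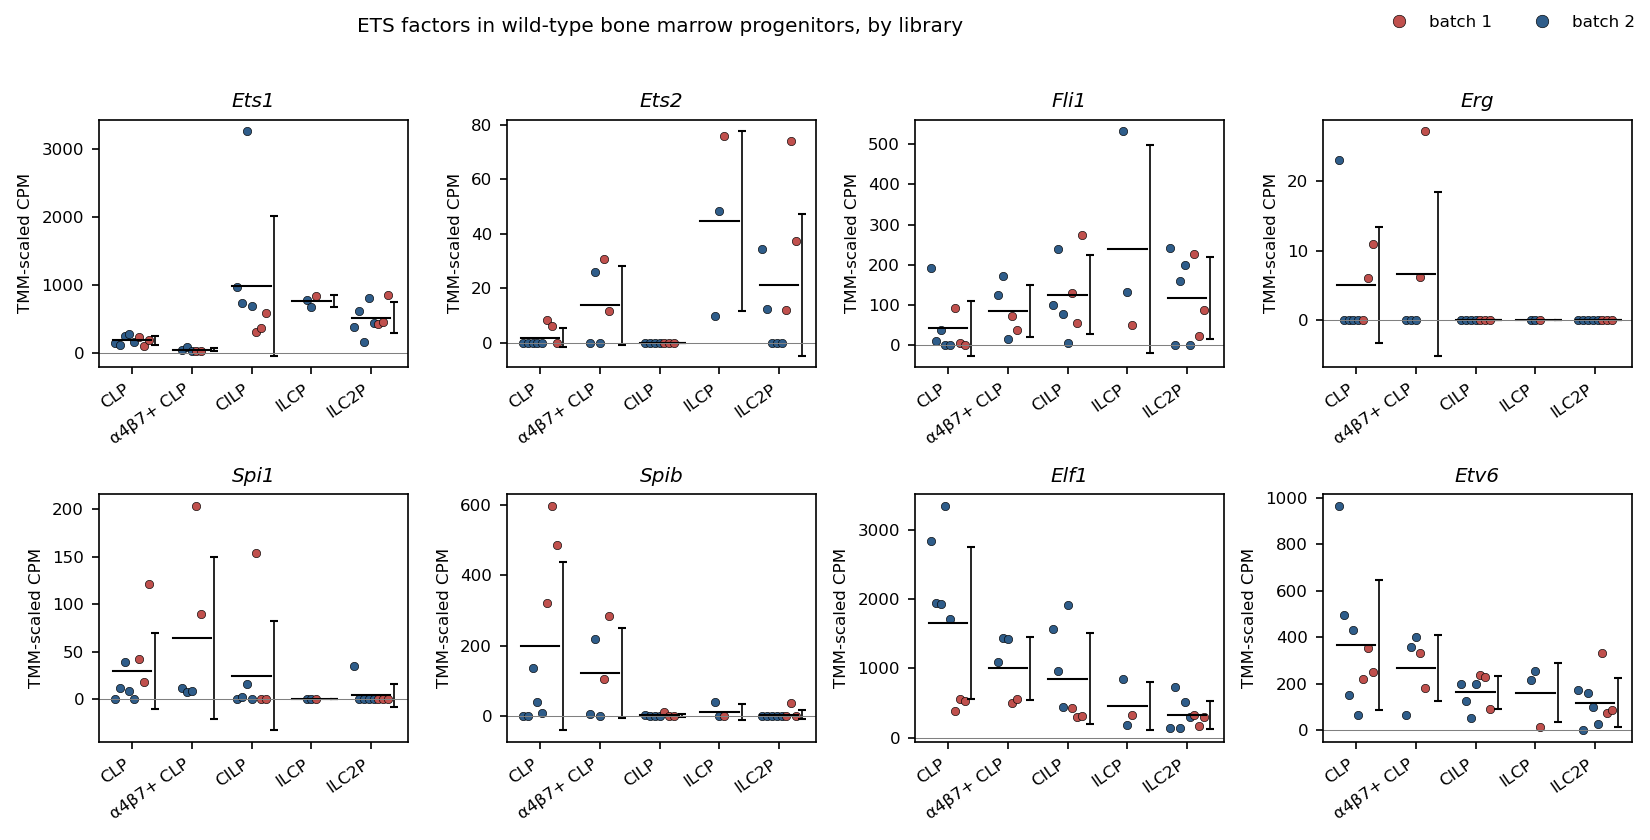
Level of each ETS factor in TMM-scaled CPM (vertical axis) in every wild-type library, by population (horizontal axis) and coloured by batch, with a line at each group's mean and a bar of 1 SD either way. Ets1 in the 5 a4b7 CLP libraries (23.4 to 78.3 CPM) lies under all CLP libraries, and Spib in the 7 CILP libraries does not pass 11.9 CPM.

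Ets1, the founding member of the family and a factor of T, NK and innate lymphoid cells, was lowest in a4b7 CLP and rose from CLP and a4b7 CLP to CILP. In CLP its level ran from 97.7 to 278 CPM with a median of 169 (183 ± 65.0, SD, n = 8). In a4b7 CLP it was 42.0, 78.3 and 24.6 CPM in batch 2 and 30.9 and 23.4 CPM in batch 1 (39.8 ± 22.7, SD, n = 5). All 5 of those libraries were below all 8 CLP libraries, and the ratio of the means was 4.6. That lower level did not pass the test over all genes (log2 difference −2.18 ± 0.546 SE, edgeR p = 0.000235, adjusted p = 0.173), in a comparison where 0.0456% of genes did. None of the 7 tested factors passed there, and 1 of them had an unadjusted p under 0.05, as did 831 of the 10972 genes. DESeq2 called 1 (Ets1, adjusted p = 0.00495) and limma-voom 0.

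In CILP Ets1 reached 309 to 3269 CPM with a median of 682 (986 ± 1032, SD, n = 7). No CILP library overlapped a CLP or an a4b7 CLP library. The rise over CLP was 2.32 ± 0.465 on the log2 scale (edgeR adjusted p = 0.000661), and that over a4b7 CLP 4.51 ± 0.554 (adjusted p = 3.57e-07), a 24.8-fold ratio of the means. Ets1 and Spib were the 2 of 7 tested factors called in each of these comparisons, Ets1 higher and Spib lower. Of all genes, 4.31% were called between CILP and CLP (2.34% higher and 1.97% lower) and 2.35% between CILP and a4b7 CLP (0.911% higher and 1.44% lower). Both comparisons share the CILP libraries. The highest library, replicate 3, moved the first difference most: without it the rise over CLP was 1.73, and adjusted p ranged from 0.000483 to 0.0253 over the libraries left out in turn.

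The size of the rise differed with the batch. CILP libraries of batch 2 held 974, 728, 3269 and 682 CPM of Ets1 and those of batch 1 held 309, 357 and 585 CPM, while CLP was alike in both (188 ± 69.2, n = 5, and 174 ± 70.8, n = 3, both SD). The log2 difference between CILP and CLP was 2.90 in batch 2 alone (adjusted p = 0.00757) and 1.25 in batch 1 alone (adjusted p = 0.403). T cell markers differed between the batches in the same direction: all 7 of the list had counts in CILP, and they took 0.23 to 0.561% of counts in the batch 2 libraries but 0.0179 to 0.0379% in those of batch 1. Within batch 2 the libraries with 3269, 974, 728 and 682 CPM of Ets1 had 0.23, 0.552, 0.404 and 0.561%. In CLP 4 of the 7 had counts, Cd3e, Cd3d and Cd3g were at 0, and the sum did not pass 0.00395%. Their part in the Ets1 difference was not tested.

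After CILP the Ets1 level did not pass in any comparison with CILP. ILCP held 775, 666 and 841 CPM (761 ± 88.3, SD, n = 3), and ILC2P 160 to 856 CPM with a median of 438 (515 ± 231, SD, n = 8). ILCP sat within the range of CILP (log2 difference −0.25, adjusted p = 0.967), and its direction turned without CILP replicate 3 (0.34, adjusted p = 0.942). ILC2P overlapped both CILP (−0.77 ± 0.463, adjusted p = 0.333) and ILCP (−0.52 ± 0.603, adjusted p = 0.804). Against CLP, ILC2P was higher by 1.55 ± 0.454 (adjusted p = 0.0184), and 7 of its 8 libraries lay above every CLP library. That call was lost without ILC2P replicate 8 (1.30, adjusted p = 0.06), in either batch alone (1.67, adjusted p = 0.101, and 1.40, adjusted p = 0.156) and with no filter on low counts (adjusted p = 0.0536). From lowest to highest mean the order was a4b7 CLP, CLP, ILC2P, ILCP and CILP, and of those neighbours only CLP and ILC2P differed in the test. Without replicate 3 the CILP mean was below that of ILCP.

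Ets2, the nearest relative of Ets1 and known as a target of growth factor signalling, was counted rarely, with 68 counts in 20 of the 47 libraries. All 7 CILP libraries had none, which allows up to 2.22 CPM. The 3 ILCP libraries held 9.88, 48.5 and 75.7 CPM (15 counts in all). ILC2P held Ets2 in 5 of 8 libraries, from 0 to 74.2 CPM with a median of 12.2 (12 counts). Of these counts 10 were in the 3 libraries of batch 1 (11.9 to 74.2 CPM) and 2 in the 5 of batch 2 (0 to 34.5 CPM). So ILCP and CILP did not overlap, while ILC2P libraries without a count did overlap CILP.

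The Ets2 mean of ILC2P was at least 9.59-fold higher than that of CILP, against the bound of 3 counts over the CILP group, and the test called it (edgeR adjusted p = 0.0425). It was the 1 of 7 tested factors called there, where 5.32% of genes were. The call is thin: it was lost on leaving out any of the 7 CILP libraries or ILC2P replicate 1, 2, 7 or 8, with adjusted p between 0.0431 and 0.0755 over all 15. DESeq2 gave Ets2 no adjusted p in that comparison, and limma-voom called it (2.60, adjusted p = 0.00748). The mean of ILCP was at least 20.1-fold higher than that of CILP and missed the threshold (adjusted p = 0.0835). For ILCP against CILP edgeR called 0 of the 7, where it called 0.374% of genes. Of the 7, 3 had an unadjusted p under 0.05, as did 1181 of the 10972 genes. DESeq2 called 0 of the 6 it gave an adjusted p (not Ets2) and limma-voom 1 (Ets2, adjusted p = 0.0344). Upstream, Ets2 had 2 counts in CLP, in 2 of 8 libraries, and 18 in a4b7 CLP at 0, 26.1, 0, 30.9 and 11.7 CPM. CILP was at least 6.17-fold lower than a4b7 CLP, without a call (adjusted p = 0.0987).

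Fli1 and Erg, the pair with the most helix bases in common, are factors of blood stem cells, megakaryocytes and vessels. Fli1 was found in 41 of the 47 libraries and scattered within each population. CLP ran from 0 to 192 CPM (median 9.02), CILP from 6.89 to 274 CPM (median 100) and ILC2P from 0 to 242 CPM (median 123). The a4b7 CLP libraries held 126, 172, 16.4, 74.3 and 38.9 CPM and the ILCP libraries 533, 133 and 50.5 CPM. Each population overlapped each other one, and no wild-type comparison of Fli1 passed. The widest by p was CILP against CLP, with a log2 difference of 1.53 ± 0.848 (adjusted p = 0.365). ILCP replicate 1, with the highest Fli1 level of the wild type, also held the most erythroid and megakaryocyte markers of its group, 1.17% of counts against 0 in the other 2 libraries; their part was not tested.

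Erg was counted in the early populations and nowhere else among wild-type libraries. CLP had 5 counts, in 3 of 8 libraries (23.0, 6.11 and 11 CPM), and a4b7 CLP had 8, in 2 of 5 (6.19 and 27.2 CPM). CILP, ILCP and ILC2P had no count of Erg, which allows up to 2.22, 7.43 and 5.68 CPM. Against the CILP bound the CLP mean was at least 2.26-fold and the a4b7 CLP mean at least 3.01-fold higher, with no test. At this depth a lower level of Erg in ILCP or ILC2P than in CLP was not detectable.

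Spi1 encodes PU.1, whose dose divides myeloid from lymphoid fates in textbook accounts. It was low and patchy. CLP ran from 0 to 121 CPM with a median of 15.1 (30.1 ± 40.2, SD, n = 8). The a4b7 CLP libraries held 12, 7.83 and 8.20 CPM in batch 2 and 204 and 89.5 CPM in batch 1. The library with 204 CPM, the most Spi1 of the wild type, had 0.891% of counts in myeloid markers, against 0.0024 to 0.0285% in the other 4, and their part was not tested. In CILP 4 of 7 libraries had no Spi1 count, 2 had 1.90 and 15.9 CPM, and replicate 5 had 154 CPM.

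That CILP library also held the most mast cell and basophil markers of its group, 0.503% of counts against at most 0.0563% in the other 6, with Ms4a2 at 0 in all 7; their part was not tested. All 3 ILCP libraries were at 0, and so were 7 of 8 ILC2P libraries, the exception being replicate 1 with 34.5 CPM from 1 count. ILC2P was lower than CLP by a fitted −3.09 ± 1.68 that did not pass (adjusted p = 0.149). Without ILC2P replicate 1, which also had 0.538% myeloid markers, the difference was −5.45, and Spi1 then passed (adjusted p = 0.0303 in that fit). It passed as well when the 7 libraries with at least 0.5% myeloid or erythroid markers were left out (−5.55, adjusted p = 0.0303). ILCP was at least 3.31-fold lower than CILP (adjusted p = 0.444).

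Spib, the close relative of Spi1 and a factor of plasmacytoid dendritic and B cells, fell between CLP and CILP. In CLP it ran from 0 to 598 CPM with a median of 88.9 (199 ± 239, SD, n = 8), and in a4b7 CLP it was 6, 219, 0, 105 and 284 CPM (123 ± 127, SD, n = 5). CILP had 2 Spib counts in all, in 2 of 7 libraries at 3.72 and 11.9 CPM. ILCP had 39.5, 0 and 0 CPM, and 7 of 8 ILC2P libraries had none, with 37.1 CPM in replicate 7. The early populations thus overlapped the later ones only through early libraries with little or no Spib.

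The fall of Spib from CLP to CILP was −5.53 ± 1.42 on the log2 scale (edgeR adjusted p = 0.000558), an 89.2-fold ratio of the means. From a4b7 CLP to CILP it was −5.49 ± 1.48 (adjusted p = 0.00156, 55.2-fold), and from CLP to ILC2P −4.78 ± 1.35 (adjusted p = 0.00242, 42.9-fold). The size of the last rests on the 3 counts of ILC2P replicate 7, without which it was −7.41 (adjusted p = 0.00155). CLP and a4b7 CLP were not told apart (−0.04 ± 0.897, adjusted p = 1). The a4b7 CLP call was lost without replicate 2 of that group (−4.00, adjusted p = 0.0641). The ILCP value rests on replicate 1: the log2 difference from CILP was 3.27 ± 1.68 with it (adjusted p = 0.357) and −2.36 without it (adjusted p = 0.79).

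Within CLP, Spib separated the batches. Batch 1 libraries held 322, 598 and 485 CPM (468 ± 139, SD, n = 3) and batch 2 libraries 0, 0, 137, 40.8 and 8.36 CPM (37.2 ± 58.2, SD, n = 5), with no overlap. The fall from CLP to CILP was −6.71 in batch 1 alone (adjusted p = 2.96e-06) and −4.42 in batch 2 alone (adjusted p = 0.226). Markers of dendritic cells differed between the batches in the same direction as Spib. In CLP 6 of the 7 had counts and Xcr1 was at 0. They took 0.451 to 0.933% of counts in batch 1 but 0.0496 to 0.115% in batch 2. Within a batch the order was not that of Spib. For the libraries in the order above, the shares were 0.888, 0.933 and 0.451% in batch 1. In batch 2 they were 0.115, 0.0767, 0.105, 0.0496 and 0.0873%. In a4b7 CLP these markers took 0.656 and 0.673% in batch 1 and 0.183 to 0.244% in batch 2, and in CILP 0.0221 to 0.08% with Cd209d at 0. The part of these markers in the Spib difference was not tested.

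Elf1, a factor that binds lymphoid promoters and enhancers, fell from CLP to ILC2P and was found in all 47 libraries. CLP held 382 to 3349 CPM with a median of 1818 (1655 ± 1103, SD, n = 8). The a4b7 CLP libraries held 1087, 1431, 1418, 501 and 553 CPM (998 ± 452, SD, n = 5), and CILP 301 to 1907 CPM with a median of 436 (845 ± 657, SD, n = 7). ILCP held 849, 182 and 328 CPM, and ILC2P 133 to 727 CPM with a median of 297 (324 ± 207, SD, n = 8). The mean was lower at each step in that order, and neighbouring populations overlapped.

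No single step of Elf1 passed, and ILC2P against CLP did (−1.96 ± 0.378, edgeR adjusted p = 0.000208). The difference between CILP and CLP was −0.82 ± 0.385 (adjusted p = 0.251) and that between ILC2P and CILP −1.14 ± 0.393 (adjusted p = 0.0669). Batch 2 carried the larger contrast: CLP held 2353 ± 705 CPM there (SD, n = 5) and 491 ± 95.8 CPM in batch 1 (SD, n = 3), while ILC2P held 362 ± 257 (n = 5) and 260 ± 86.9 CPM (n = 3). In batch 2 alone the difference was −2.64 (adjusted p = 0.000915) and in batch 1 alone −0.96 (adjusted p = 0.351).

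Etv6, a repressor needed by blood stem cells, was found in 46 of the 47 libraries and did not pass in any wild-type comparison. CLP ran from 66.9 to 966 CPM (median 304), CILP from 55.5 to 237 CPM (median 200) and ILC2P from 0 to 334 CPM (median 93.8). The a4b7 CLP libraries held 66.0, 358, 402, 334 and 183 CPM and the ILCP libraries 217, 254 and 16.8 CPM. All populations overlapped. The nearest to a call was ILC2P against CLP (−1.62 ± 0.581, adjusted p = 0.059), which limma-voom put past the threshold (−1.79, adjusted p = 0.0325).

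**Figure D2:**
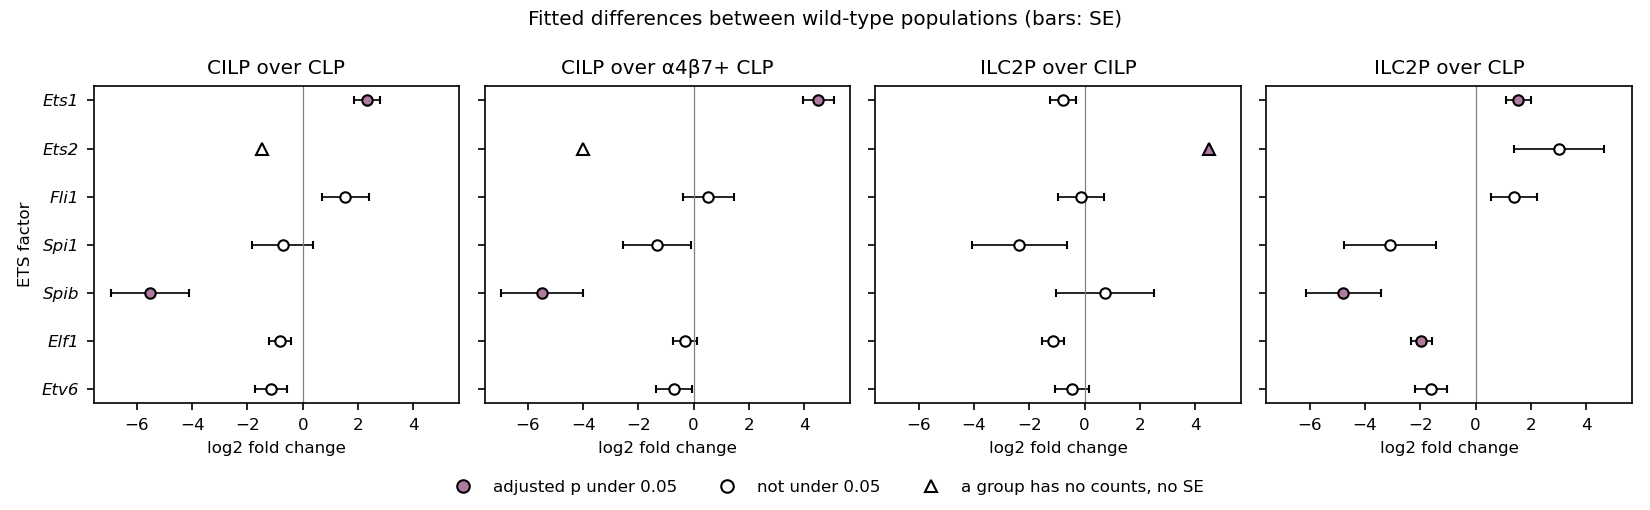
Fitted log2 fold changes (horizontal axes) of the 7 tested ETS factors (vertical axis) between wild-type populations, with bars of 1 standard error. Filled points have an edgeR adjusted p under 0.05, and triangles mark genes with no count in a group, which have no standard error. Ets1 and Spib are filled on opposite sides of 0 for CILP against CLP, at 2.32 and −5.53.

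Over the whole step from CLP to ILC2P, 3 of the 7 tested factors were called, Ets1 higher and Spib and Elf1 lower, where 11.5% of all genes were called (3.46% higher and 8.0% lower). The median log2 difference of the 7 was −1.62, beside −0.431 over all genes tested. With DESeq2's size factors in place of TMM the median over all genes was −0.178, a shift of 0.253 that bears on each ILC2P comparison. Under that scaling Ets1 (1.82, adjusted p = 0.00418), Spib (−4.70, adjusted p = 0.00522) and Elf1 (−1.72, adjusted p = 0.000696) kept their directions and calls. In that setting 44.7% of the called genes were higher in ILC2P, against 30.2% with TMM. Limma-voom called 5 of the 7 there, adding Ets2 and Etv6. From CLP to CILP the median of the 7 was −0.822, beside 0.0645 over all genes. For ILC2P against ILCP edgeR called 0 of the 7, where it called 0.483% of all genes, and DESeq2 and limma-voom called 0. At an unadjusted p under 0.05 were 0 of the 7 and 1361 of the 10972 genes.

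The comparison of batches, added after the data were seen, put 2 of the 7 tested factors past the threshold, where 16.3% of all genes were (8.27% higher and 8.06% lower in batch 2). Elf1 was higher in batch 2 by 1.60 ± 0.244 (edgeR adjusted p = 3.85e-07), and Spib was lower (−2.07 ± 0.628, adjusted p = 0.0148). Spi1 was lower in batch 2 by −2.08 ± 0.779 without a call (adjusted p = 0.0545). For the other 4 the log2 differences lay between −0.62 and 0.62. All comparisons of populations and genotypes carry a batch term. Values by batch stand beside the results of Ets1, Ets2, Spi1, Spib and Elf1, though not for every population, and are not given for Fli1 and Etv6.

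Of the knockout comparisons, the change that passed in mice without Tcf7 was that of Spib. In wild-type CILP it did not pass 11.9 CPM, while the Tcf7-/- CILP libraries held 140, 19.0, 0 and 338 CPM (124 ± 155, SD, n = 4). So 3 of the 4 lay above every wild-type CILP library and 1 had no count. In ILC2P the Tcf7-/- libraries held 631 and 19.4 CPM against 0 in 7 of 8 wild-type libraries and 37.1 CPM in the last. In that population 1 of 2 lay above all wild-type libraries. Both were deeper than any of those, and 19.4 CPM there came from 4 counts. In unscaled CPM the Tcf7-/- ILC2P libraries held 309 and 16.1 and wild-type ILC2P replicate 7 held 44.0.

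The fitted rise of Spib was 5.22 ± 1.53 on the log2 scale in CILP (edgeR adjusted p = 0.0307, 55.6-fold by the means) and 7.04 ± 1.69 in ILC2P (adjusted p = 0.000448, 70.0-fold). It was the 1 of 7 tested factors called in each, where 0.501% and 2.57% of genes were. In CLP, Spib was 35.8, 25.6, 39.2, 138 and 179 CPM without Tcf7, and the difference did not pass (−1.19 ± 0.942, adjusted p = 0.924). The last 3 of these are batch 1 libraries and lay below the wild-type values of that batch (322, 598 and 485 CPM), a difference of −1.99 in batch 1 alone that did not pass either (adjusted p = 0.863). The direct test of whether the step from CLP to CILP differed by genotype gave 6.41 ± 1.8 for Spib and missed the threshold (p = 7.6e-05, adjusted p = 0.0834), where 0.0456% of genes passed. For that test edgeR called 0 of the 7 factors, with 1 at an unadjusted p under 0.05, beside 996 of the 10972 genes. DESeq2 called 1 (Spib) and limma-voom 0.

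The libraries with much Spib also held markers of other cells. The Tcf7-/- CILP libraries with 140 and 338 CPM of Spib had 1.1 and 1.11% of counts in myeloid markers and 1.31 and 3.51% in erythroid and megakaryocyte markers. Those with 19.0 and 0 CPM had 0.0996 and 0% and 0.169 and 0.0298%. The Tcf7-/- ILC2P library with 631 CPM had 0.899 and 0.842%, and that with 19.4 CPM had 0 and 0.0117%. In wild-type CILP the ranges were 0 to 0.158% and 0 to 0.122%.

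Of the 12 myeloid markers 8 had counts in Tcf7-/- CILP and 7 in Tcf7-/- ILC2P, with Mpo, Elane, Prtn3 and Itgam at 0 in both. Of the 11 erythroid and megakaryocyte markers in the files 10 and 5 had counts, with Pf4 at 0 in both. B cell markers were at 0.386% in the first of those CILP libraries and 0.293% in the first ILC2P library, against at most 0.0428% in wild-type CILP and 0.207% in wild-type ILC2P, with Pax5 at 0. Dendritic markers took 0.0318, 0.0479, 0.0971 and 0.164% in the Tcf7-/- CILP libraries with 140, 19.0, 0 and 338 CPM of Spib. In wild-type CILP they took 0.0221 to 0.08%. In Tcf7-/- ILC2P they took 0.0194 and 0.0696%, the lower value in the library with more Spib.

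Without the 7 libraries that had at least 0.5% myeloid or erythroid markers, 3 of them among these, the Spib difference was 2.90 in CILP (adjusted p = 0.835) and 3.30 in ILC2P (adjusted p = 0.634). Without Tcf7-/- ILC2P replicate 1 alone it was 3.07 (adjusted p = 0.679). In CILP the call was also lost on leaving out Tcf7-/- replicate 1 or 4, or wild-type replicate 2, 3, 4, 6 or 7, with adjusted p from 0.0111 to 0.18 over all 11. Limma-voom called neither (2.84, adjusted p = 0.251, and 3.48, adjusted p = 0.221).

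**Figure D3:**
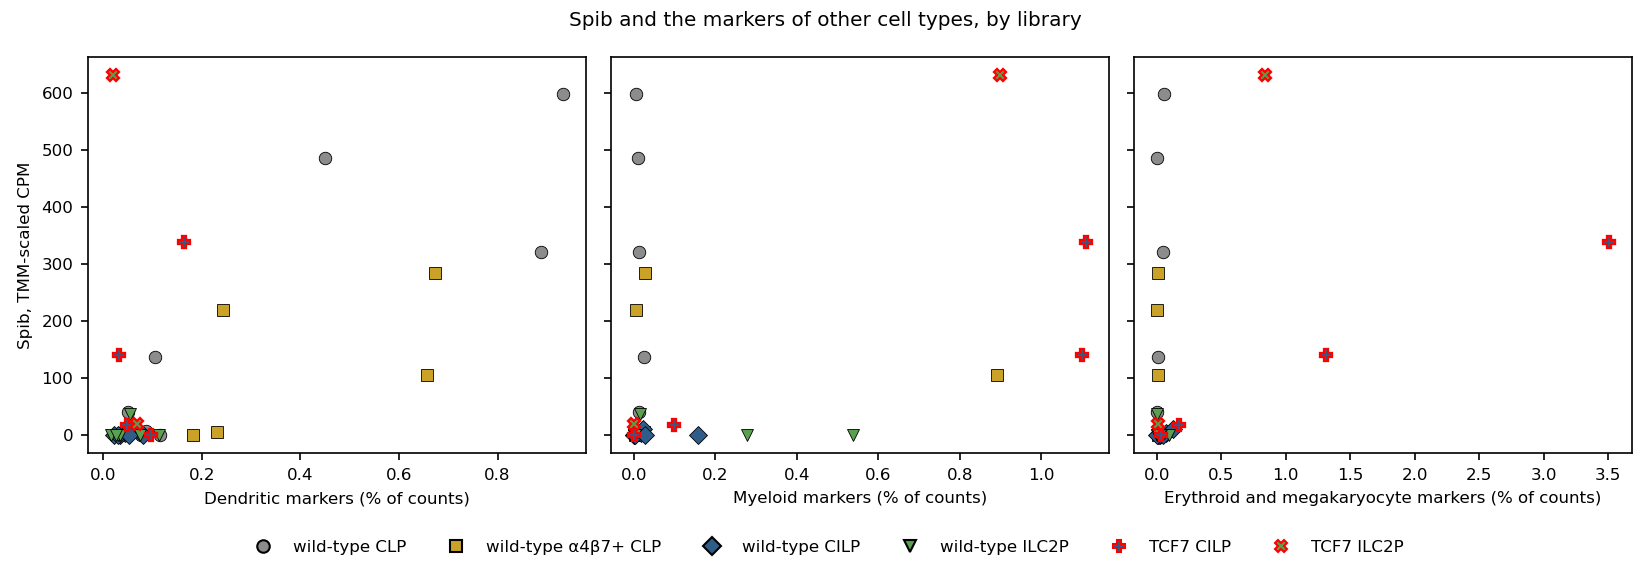
Spib level in TMM-scaled CPM (vertical axes) against the share of counts taken by markers of other cell types (horizontal axes, % of counts), 1 point per library of wild-type CLP, a4b7 CLP, CILP and ILC2P and of Tcf7-/- (TCF7) CILP and ILC2P. The Tcf7-/- ILC2P library at 631 CPM has 0.899% myeloid markers, and the 3 CLP libraries with the most Spib have the most dendritic markers of that group.

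The other factors did not pass in Tcf7-/- cells. Spi1, the close relative of Spib, was 40.0, 130, 0 and 53.4 CPM in Tcf7-/- CILP (log2 difference 2.49 ± 1.30, adjusted p = 0.451) and 40.4 and 9.71 CPM in ILC2P (3.98 ± 2.16, adjusted p = 0.255). Elf1 was 1044 and 1223 CPM in Tcf7-/- ILC2P, above all 8 wild-type libraries (133 to 727 CPM), with a difference of 1.12 ± 0.596 that did not pass (adjusted p = 0.333). Both of those libraries were in batch 2, where wild-type ILC2P held 133 to 727 CPM as well. In unscaled CPM the Tcf7-/- libraries held 512 and 1013 and wild-type ILC2P replicate 2 held 832, so without TMM scaling the groups overlapped.

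Ets1 in Tcf7-/- CILP was 1020, 691, 408 and 17.8 CPM, with 1 library below every wild-type one (−0.86 ± 0.562, adjusted p = 0.601). That library, with 1 count of Ets1, is the one with 1.11% myeloid and 3.51% erythroid and megakaryocyte markers, and their part was not tested. In Tcf7-/- CLP it was 105 to 244 CPM and in ILC2P 461 and 704 CPM, both within the wild-type range. Ets2 was 128 CPM in 1 of 5 Tcf7-/- CLP libraries (3.69 ± 1.72, p = 0.0135, adjusted p = 0.616) and at most 14.3 CPM in the other 4. Fli1 and Etv6 overlapped the wild type in each population. In CLP edgeR called 0 of the 7 factors and 0 of all genes (0%), and DESeq2 and limma-voom called 0 factors. At an unadjusted p under 0.05 were 1 factor (Ets2) and 713 of the 10972 genes. Erg had 4 counts in Tcf7-/- CLP, none in CILP and 5 in ILC2P, all 5 in replicate 1 at 40.4 CPM (19.8 unscaled). That ILC2P library is the one with 0.899% myeloid and 0.842% erythroid and megakaryocyte markers, and their part was not tested. The Erg mean of Tcf7-/- ILC2P, 20.2 CPM, was at least 3.56-fold higher than that of wild-type ILC2P, against the bound of 3 counts.

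Without Id2, Ets1 was lower in CILP. The Id2-/- CILP libraries held 202 and 81.4 CPM, below all 7 wild-type libraries (309 to 3269 CPM), and the ratio of the means was 6.94. The log2 difference was −2.31 ± 0.744 (edgeR p = 0.00819) and did not pass over all genes (adjusted p = 0.47). Both Id2-/- libraries are in batch 1, where the wild-type values were 309, 357 and 585 CPM and the difference −1.61 (adjusted p = 0.409). In CLP the Id2-/- values of 124 and 87.4 CPM were near the wild type (−0.41 ± 0.75, adjusted p = 1). The test of the step by genotype gave −1.90 ± 1.03 (adjusted p = 1), and the single Id2-/- ILCP library held 410 CPM.

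For the other factors in Id2-/- CILP, Fli1 was 24.5 and 0 CPM (−3.33 ± 1.5, p = 0.0473, adjusted p = 0.786) and overlapped the wild type at its lower end. Etv6 was 331 and 253 CPM, above all wild-type CILP libraries (55.5 to 237 CPM), with a difference of 0.86 ± 0.92 (adjusted p = 1). Elf1 was 251 and 240 CPM, below all of them, with a difference of −0.63 ± 0.618 (adjusted p = 1), and wild-type CILP held 301 to 427 CPM in the same batch. Spi1 was 30.6 and 81.4 CPM and Spib 18.4 and 9.04 CPM. Ets2 had 3 counts in 1 of the 2 libraries.

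The Id2-/- CILP libraries also differed from the wild type in their markers. CILP markers, a list that holds Id2 itself, took 0.0356 and 0.029% of counts against 0.244 to 0.575% in wild-type CILP. Erythroid and megakaryocyte markers took 0.256 and 0.27% against 0 to 0.122%, and neither of these lists overlapped. Mast cell and basophil markers took 0.614 and 0.307%, with all 5 counted, against 0.00473 to 0.503%. The part of these markers in the differences of Ets1 and the other factors was not tested.

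In Id2-/- CLP, Spib was 289 and 723 CPM (0.84 ± 1.27, adjusted p = 1). The wild-type CLP of the same batch held 322 to 598 CPM, and dendritic markers were at 1.09 and 0.918% in the Id2-/- libraries. Spi1 there was 103 and 31.8 CPM, within the wild-type range, and Elf1 296 and 473 CPM, of which the lower value was under all wild-type CLP libraries (382 to 3349 CPM). For Id2, edgeR called 0 of the 7 factors in CILP and 0 in CLP, where 0.0911% and 0.0365% of genes were called. At an unadjusted p under 0.05 were 3 factors in CILP and 0 in CLP, beside 687 and 348 of the 10972 genes. It called 0 in the test of the step, where 0.0365% of genes were called. There 1 factor (Ets2) and 528 of all genes had an unadjusted p under 0.05. DESeq2, which gave Ets2 no adjusted p in CILP and in the step, and limma-voom also called 0 factors in these 3 comparisons.

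**Figure D4:**
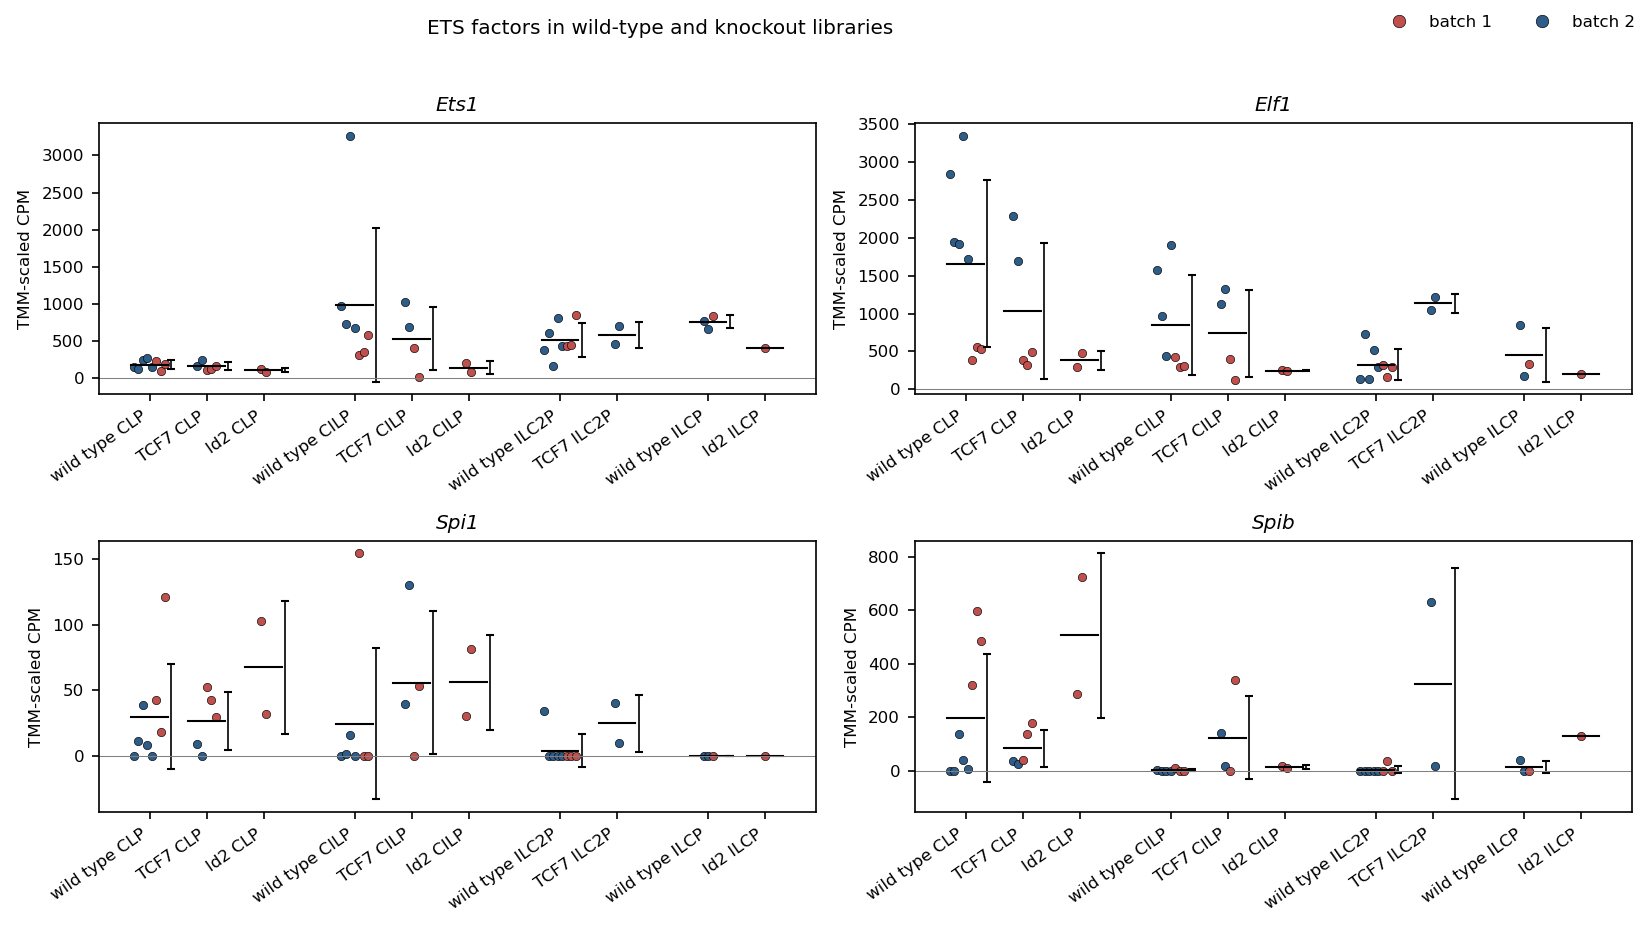
Level of Ets1, Elf1, Spi1 and Spib in TMM-scaled CPM (vertical axes) in wild-type, Tcf7-/- (TCF7) and Id2-/- (Id2) libraries, by population (horizontal axes) and coloured by batch, with a line at each group's mean and a bar of 1 SD either way. Spib in 3 of 4 Tcf7-/- CILP libraries lies above the 7 wild-type ones, and Ets1 in both Id2-/- CILP libraries (202 and 81.4 CPM) lies below them.

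Of the 18 other ETS family genes of the mouse, 10 had enough counts to be tested and 2 of them, Fev and Elk4, differed among the wild-type populations, a share near the 18.1% of all genes. Elk4, a ternary complex factor that works with SRF, was higher in CILP than in CLP by 4.15 ± 1.5 (edgeR adjusted p = 0.0421), with CLP at 0 to 8.48 CPM and CILP at 0 to 222 CPM. Fev had all 23 of its counts in 1 CILP library. Gabpa, Elk3, Elf2 and Elf4, widely expressed members, were not called in any comparison of populations or genotypes.

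**Figure D5:**
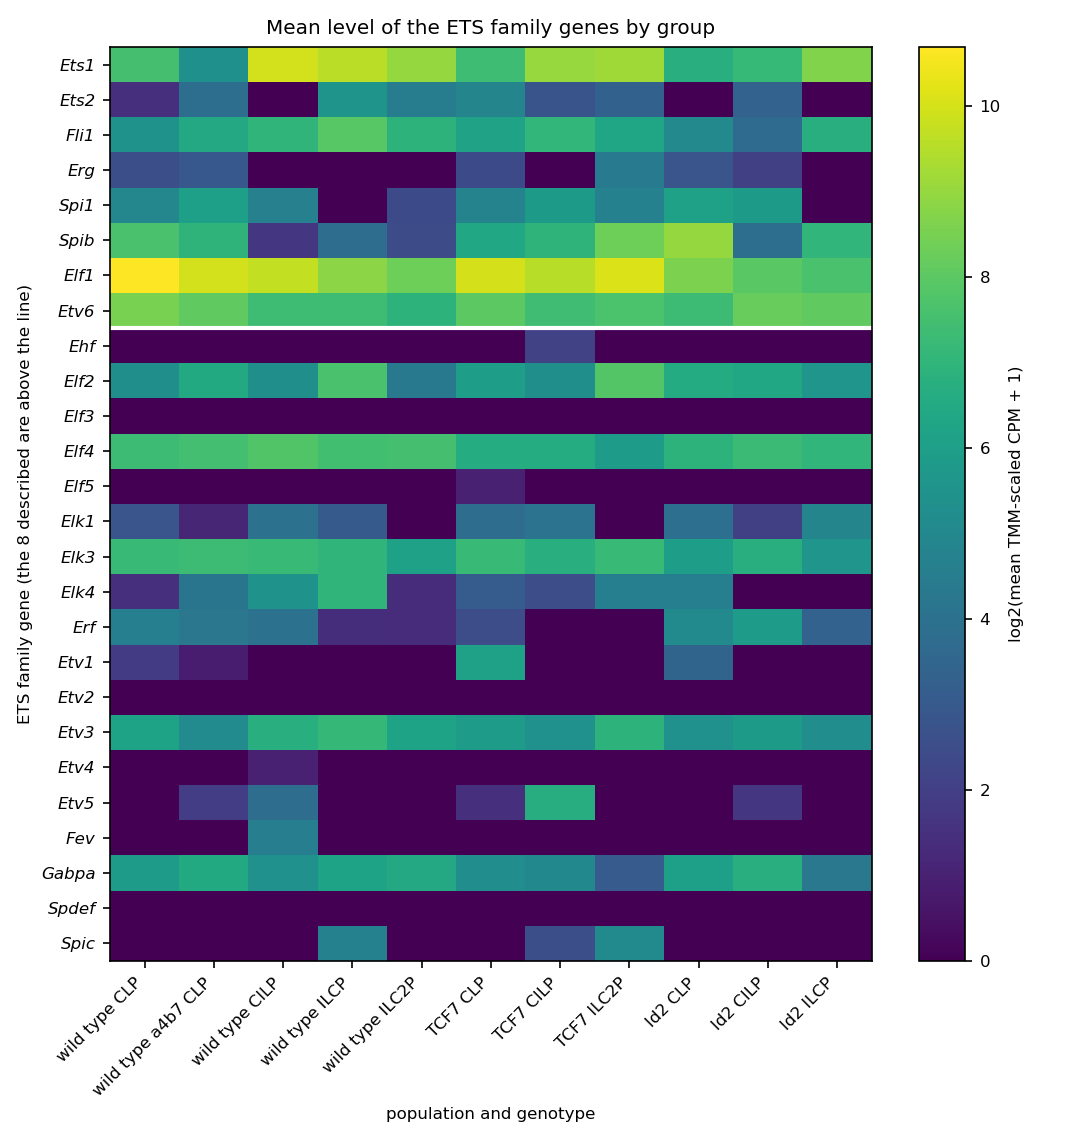
Mean level of the 26 ETS family genes (vertical axis, the 8 described above the line) in each population and genotype (horizontal axis), coloured by log2(mean TMM-scaled CPM + 1). Spib is dark in wild-type CILP, at 2.23 CPM, and Erg and Ets2 are at 0 there.

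The genes that ETS factors work with were followed in the same fits, in lists chosen with results of these data known. Of 16 tested partners and antagonists, 4 were called between CLP and CILP, where 4.31% of all genes were. Gata3, an antagonist of PU.1, was higher in CILP (4.43 ± 0.837, edgeR adjusted p = 0.0032). Lmo2 (−6.18 ± 1.04, adjusted p = 6.45e-06), Irf8 (−4.79 ± 0.931, adjusted p = 0.00553), with which PU.1 and SPI-B bind composite sites, and Myb (−1.54 ± 0.42, adjusted p = 0.0206) were lower. Gata3 was also higher and Lmo2 and Irf8 lower in CILP than in a4b7 CLP. Gata3 is also among the CILP and ILC2P markers used here, and Irf8 among the dendritic ones. In ILC2P, Myb was lower than in CILP by a further −5.81 ± 0.786 (adjusted p = 2.91e-12). Between CLP and ILC2P 6 of the 16 were called, Gata3 higher and Myb, Runx1, Lmo2, Lyl1 and Irf8 lower, where 11.5% of all genes were called.

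Without Tcf7, Lmo2 (6.11 ± 1.16, adjusted p = 0.000446) and Gata2 (5.24 ± 1.18, adjusted p = 0.0321) were the 2 of 16 called in CILP, both higher, where 0.501% of all genes were called. In ILC2P Myb and Irf8 were the 2 called, both higher, where 2.57% of all genes were. Without Id2, Lmo2 was the 1 called in CILP (5.93 ± 1.39, adjusted p = 0.00804), where 0.0911% of all genes were. The median log2 difference of the 16 was 1.61 in Tcf7-/- CILP, beside −0.316 over all genes. These are the knockout libraries whose myeloid, erythroid, mast cell and other markers are given above. Without the libraries that had at least 0.5% myeloid or erythroid markers, 0.0282% of all genes were called in Tcf7-/- CILP. In Tcf7-/- ILC2P 0.714% were. The part of these markers in the calls of the partners was not tested.

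Of 16 tested textbook targets of PU.1, 4 were called between CLP and CILP, where 4.31% of all genes were. The B cell adaptor gene Blnk (299 to 947 CPM in CLP and no count in CILP, adjusted p = 2.89e-10), the cytokine receptor gene Flt3 (−6.21 ± 0.891, adjusted p = 2.04e-07) and the phagocyte oxidase gene Cybb (−5.38 ± 2.00, adjusted p = 0.00286) were lower in CILP. Fcgr3 was higher (adjusted p = 0.0203). Flt3 is also among the CLP markers used here. Between CLP and ILC2P 6 were called and all 6 were lower, where 8.0% of all genes were called lower.

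In Tcf7-/- CILP, Cybb (8.66 ± 2.07, adjusted p = 5.76e-05) and Blnk (adjusted p = 0.0144) were the 2 called, both higher, where 0.501% of all genes were called. In Tcf7-/- ILC2P, Fcer1g, Cd74, Blnk and Cybb were called, all 4 higher, where 2.57% of all genes were. The median of the 16 there was 2.66, beside 0.194 over all genes. These are the libraries whose myeloid and erythroid markers are given with Spib.

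Of 9 tested lymphoid genes with known ETS sites, all 9 differed among the wild-type populations, where 18.1% of all genes did. Between CLP and CILP 5 were called, all higher, where 2.34% of all genes were called higher: Trbc1 (8.17 ± 0.728, adjusted p = 8.51e-15), Trbc2 (5.43 ± 0.857, adjusted p = 3.83e-06), Id2 (6.45 ± 1.18, adjusted p = 0.000633), Il2rg (1.91 ± 0.563, adjusted p = 0.0331) and Tbx21 (adjusted p = 0.0421). The median of the 9 was 3.02, beside 0.0645 over all genes. In Tcf7-/- CILP Trbc1 was the 1 called, lower (−2.67 ± 0.689, adjusted p = 0.0492), where 0.501% of all genes were called. Trbc1 and Trbc2 are also among the T cell markers given with Ets1. The list also holds Il7r, Id2 and Il2ra, which are among the CLP, CILP and ILC2P markers used here. Genes that mark the populations differ among them by choice, so 9 of 9 cannot be set against the share of all genes. A list's median describes its genes in these libraries and is no test of them.

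As a description, the genes whose pattern over the 31 wild-type libraries was most like each factor's were found among 7287 genes, by Pearson's r of log2(CPM + 1). For Ets1 they were Gclc (r = 0.781) and Bcl11b (0.775), a T and ILC2 lineage factor. For Spib they were Alcam (0.808), Fam219b (0.787) and Tcf4 (0.787), the E protein of plasmacytoid dendritic cells. For Spi1 they were Rad51ap1 (0.761) and Knl1 (0.734), genes used in dividing cells.

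For Elf1 the nearest were Pgls (0.806), Cybc1 (0.782) and Sirt3 (0.781), and for Etv6 Spag9 (0.754), G3bp2 (0.726) and Cux1 (0.722). Fli1 had no gene at r of 0.7 or more, its highest being 0.652, and Ets2 and Erg were too low to compare. The libraries share batch, depth and population, so these values hold all 3. Among the 8 factors the closest pair was Spi1 with Spib (r = 0.632, rho = 0.6), and Ets1 ran opposite to Spi1 (r = −0.511, rho = −0.539). For the genomic neighbours r was 0.134 (Ets1 with Fli1) and 0.0428 (Ets2 with Erg).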

How the data were processed

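The authors deposited 1 table per batch of whole-number read counts, with genes given by Entrez identifier. Per the submitters' processing notes, the authors used CASAVA 1.8.2, the mouse build mm10 and featureCounts, with limma and edgeR (3.8.2 and 3.22.0). For the aligner, these sources name no tool. No molecular identifiers and no strand setting are stated, so bounds cover counting error only, and reads of a gene and an antisense or overlapping partner cannot be told apart. Of 27179 identifiers, 25275 (93.0%) matched RefSeq's GRCm38.p6 symbols. Value columns without a sample numbered 0.

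Of 70 samples 4 were technical repeats, summed with the library they repeat, which left 66 libraries, of which 47 (22 in batch 1, 25 in batch 2) were compared. The 12 control wells, 6 libraries labelled Nfil, which the labels call an unsuccessful knockout, and 1 CILP library that the labels call an outlier were given as values only. Whether the libraries of a group are from different animals is not stated: p-values measure the spread between these libraries, which may be technical.

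edgeR 4.0.16 in R 4.3.3 was fitted to all 47 libraries: filterByExpr (at least 10 counts, 15 in total, leaving 10972 genes), TMM scaling, group means with batch as an added term (35 residual degrees of freedom, biological coefficient of variation 109.7%), and robust quasi-likelihood tests. Groups of 1 or 2 libraries are assumed to vary like the others. Adjusted p is Benjamini-Hochberg over all genes tested, and genes were called under 0.05. A fold against a group without counts was bounded by 3 counts over that group. The procedure was tested on simulated data. Alternatives used DESeq2 1.42.0, its size factors, limma-voom (limma 3.58.1), a fit to the compared groups only, a fit to either batch, a fit with no batch term, no low-count filter, the outlier library included, shallow libraries excluded and, in turn, every single library excluded. DESeq2 left Ets2, and in 3 comparisons Spi1, without an adjusted p in most comparisons, so its counts are of the factors that had one. Leaving out libraries with other cells' markers and the comparison of batches were added after the data were seen.

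The 8 genes, the lists of other ETS genes, partners and targets, and the marker lists were chosen with earlier results of these data known. The text names the 8 genes in each comparison, list genes that were called (up to 6 by adjusted p), and for each factor with a mean of at least 20 CPM the 3 genes most like it where r was at least 0.7, less 1 gene each for Ets1 and Spi1 that is not reported here.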

Additional observations from a re-analysis of the deposited data

Results flagged for a closer look

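In groups of 4 to 10 libraries, a library was singled out when its gap to the next one was a large part of the group's range (Dixon's 95% limit). Of 44 factor and group pairs examined, 10 had such a library. The rate of about 1 in 20 by chance, or 2.2, holds for normally distributed values only. Many of these levels are sparse, and 1 count can be enough to single out a library. That was so for Spi1 in wild-type ILC2P replicate 1, Spib in wild-type CILP replicate 5 and Ets2 in Tcf7-/- CILP replicate 1. The 10 therefore cannot be compared with 2.2, and no excess over chance is claimed. Each library singled out was the highest of its group.

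Ets1 was 3269 CPM in wild-type CILP replicate 3, with 309 to 974 CPM in the other 6. Spi1 was 154 CPM and Spib 11.9 CPM in wild-type CILP replicate 5, with at most 15.9 and 3.72 CPM in the others. Spi1 was 121 CPM in wild-type CLP replicate 8 and 34.5 CPM in wild-type ILC2P replicate 1, and Spib was 37.1 CPM in wild-type ILC2P replicate 7, where the other 7 ILC2P libraries were at 0 for each. Erg was 27.2 CPM in a4b7 CLP replicate 5. In Tcf7-/- cells, Ets2 was 20 CPM in CILP replicate 1 and 128 CPM in CLP replicate 2, and Fli1 was 242 CPM in CLP replicate 3.

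Counts of the factors also stood above 3 in libraries outside the comparisons. In the 2 CLP libraries labelled Nfil, Ets1 had 20 and 36 counts, Elf1 380 and 136 and Etv6 47 and 12, and Spi1 had 13 counts in the first. In the 2 Nfil ILC2P libraries, Ets1 had 24 and 42 counts and Elf1 27 and 107, Etv6 had 8 in the first, and Ets2 had 13 and Fli1 4 in the second. In Nfil CILP, Etv6 had 9 counts in the first library. The CILP library that the labels call an outlier had 32 counts of Ets1, 16 of Elf1, 8 of Etv6 and 4 of Fli1.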

How the results depend on the processing

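No paired analysis was possible because the labels give no replicate numbers. Counts of factors called that moved by over 1.5 times were these. Among wild-type populations (4 called), each batch alone gave 2. CILP against CLP (2) gave 1 in each batch alone and with only those groups, and CILP against a4b7 CLP (2) gave 1 in batch 2 alone and with only those groups. ILC2P against CLP (3) gave 1 in each batch alone and 5 with limma-voom. ILC2P against CILP (1, Ets2) gave 0 in each batch alone and with only those groups, and without shallow or marker-rich libraries; in batch 2 alone and with only those groups Ets2 did not pass the filter. DESeq2 gave 1 for a4b7 CLP against CLP (0), and limma-voom 1 for ILCP against CILP (0). The Tcf7 calls in CILP and ILC2P (1 each) became 0 in batch 2 alone, with limma-voom, with only those groups and without marker-rich libraries. The Tcf7 step (0) became 1 in batch 1 alone, with DESeq2, its size factors, no filter or only those groups. With 1 library left out, counts ran from 4 to 5 over all populations, 1 to 2 for CILP against a4b7 CLP, 0 to 2 for ILC2P against CILP, 2 to 4 for ILC2P against CLP, and 0 to 1 for Tcf7 in CILP, in ILC2P and in the step. For the rest the cause was not tested. Reversed were Spib in ILCP against CILP (−2.33 in batch 1 alone, −2.47 without marker-rich libraries, −2.36 to 4.09 with 1 library left out, the lowest without ILCP replicate 1) and Ets2 in Tcf7-/- CLP (−0.0688 in batch 1 alone) and in Id2-/- CILP (−0.40 to 4.11 with 1 library left out, the lowest without Id2-/- replicate 1). Of all such counts, 130 of 160 stayed within 1.5 times, and 198 of 219 with a library left out. DESeq2's size factors shifted the median over all genes by 0.319 (ILC2P against CILP), 0.273 (against ILCP), 0.261 (Tcf7 in CILP), −0.272 (Tcf7 in ILC2P) and 0.212 (Tcf7 step), and put 40.9% of calls higher for ILC2P against CILP instead of 20.7%.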

Other observations

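The technical repeats show how far 1 library's values move between runs. In wild-type CLP replicate 2 the 3 runs gave Elf1 at 2276, 736 and 671 CPM (284, 17 and 25 counts, unscaled CPM) and Etv6 at 377, 1473 and 53.6 CPM. In wild-type CILP replicate 1 they gave Ets1 at 725, 1287 and 375 CPM and Elf1 at 1709, 714 and 918 CPM. In the same runs Ets2 and Erg had no count.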
